A study of Bos grunniens x Bos taurus and Bos grunniens with 6 samples.

Results

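The genes described here encode the PIWI proteins and the factors that make piRNAs or act with them early in the pathway. A list of 10 genes was given by name, namely PIWIL1, PIWIL2, PIWIL4, DDX4, MAEL, ASZ1, MOV10L1, PLD6, HENMT1 and TEX15, and the rows of the expression table that carry these symbols were taken in whatever case the symbol was written. This gave 9 genes of the 18918 in the table, each with 1 row, while no row was matched to DDX4, which was not analysed here. The tissue was the whole testis of 3 cattle-yak (TES5, TES6 and TES7), which are F1 hybrids of a Jersey bull and a Gannan yak cow, and of 3 Gannan yak (Yak8, Yak9 and Yak10), all of them males 4 years old. Each library came from 1 animal, and the animals received no treatment that the labels name. The yak and the cattle-yak came from different counties. The labels give castration as the source of all testes, whereas the study's methods give it for the cattle-yak and euthanasia for the yak. Place, any such difference in collection and the hybrid genotype cannot be told apart. Reads of both groups were mapped to the yak genome, and the part that cattle alleles had in the values was not tested. The libraries held 11175100 to 11834987 fragments on genes in cattle-yak and 12991641 to 13136129 in yak, and the 9 genes were covered by between 25 and 7554 fragments in an animal.

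PIWI proteins are germ cell members of the Argonaute family that carry small guide RNAs, the piRNAs, and silence transposons with them. In the cytoplasm a long precursor transcript is unwound, cut at the surface of mitochondria, loaded onto a PIWI protein, trimmed and methylated at its end. In mice PIWIL4 enters the nucleus of fetal germ cells and directs DNA methylation to transposons, PIWIL2 is present from the early germ line to round spermatids, and PIWIL1 appears in pachytene spermatocytes, where an abundant class of piRNAs is made, and persists into round spermatids. Male mice that lack any of these proteins are sterile.

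The genes did not all differ in the same direction. PIWIL1, MAEL, PLD6 and TEX15 were lower in cattle-yak, with 10.6% to 46.5% of the mean FPKM of yak (fragments per kilobase of gene model, scaled to the fragments of the library). PIWIL2 and HENMT1 were higher, with 183% and 186% of the yak mean. They were lower when the libraries were centred on Sertoli or spermatogonia markers, but stayed higher when centred on early spermatocyte markers. ASZ1, MOV10L1 and PIWIL4 differed by less. The groups were compared on log2 (FPKM + 1) with limma over the 15042 genes whose mean FPKM reached 0.5, and a gene was called where the p adjusted by Benjamini and Hochberg's method was under 0.05 and the log2 (foldchange) beyond 1 in size. All 9 genes passed the filter on low values, and 4 of them were called lower, where 20.8% of all tested genes were called lower. No gene of the list was called higher by limma, against 33.4% of all tested genes. Voom in limma on recovered fragments also called 0 of the 9 genes higher, against 39.7% of all tested genes. With the adjusted p alone, 4 genes were lower and 2 higher, beside 29.2% and 52.6% of all tested genes. The 2 higher genes, PIWIL2 and HENMT1, were also the only ones higher at an unadjusted p under 0.05. The cattle-yak and yak animals did not overlap in 7 genes, 4 lower and 3 higher in cattle-yak, against 30.2% and 53.9% of all tested genes. The median log2 (foldchange) over the 9 genes was −0.13, beside 0.51 over all tested genes. In whole tissue, fewer cells of a type and less RNA per cell cannot be told apart.

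**Figure D1:**
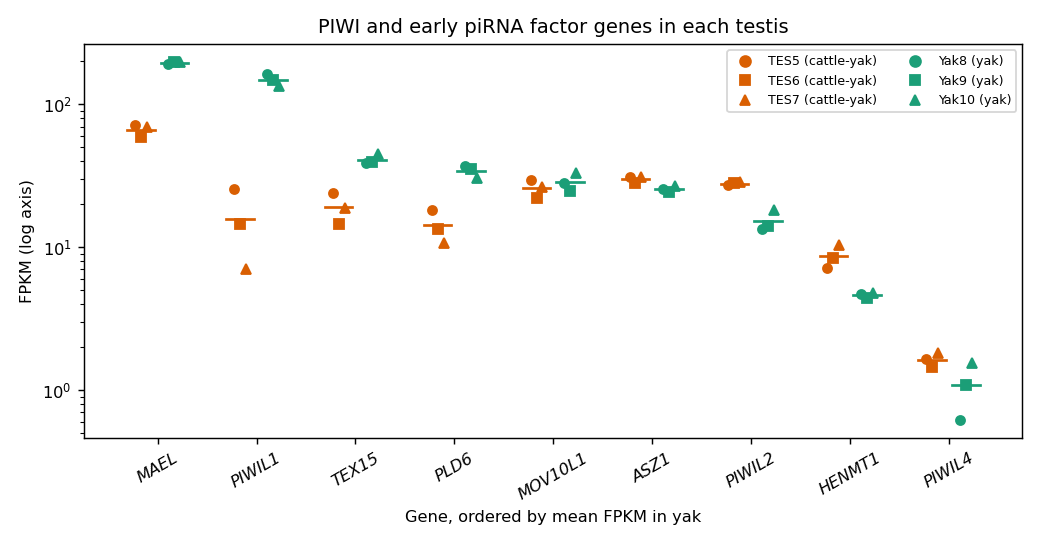
FPKM of the 9 genes in each animal on a log axis, with cattle-yak in orange, yak in green, a symbol for each animal and a line at the group mean. PIWIL1 lay between 6.99 and 25.5 FPKM in cattle-yak against 134.8 to 163.1 FPKM in yak, while the animals of the groups overlapped for MOV10L1 and PIWIL4.

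Of the PIWI proteins, PIWIL1 (ENSBGRG00000009726) showed the largest difference. It had 25.5, 14.6 and 6.99 FPKM in TES5, TES6 and TES7, and 163.1, 147.3 and 134.8 in Yak8, Yak9 and Yak10. Every cattle-yak animal was therefore far below every yak animal, and the spread was wider in cattle-yak, where the highest animal had 3.64 times the level of the lowest, against 1.21 times in yak. These values rested on 1063, 575 and 286 fragments in cattle-yak and on at least 6175 in yak. The means were 15.7 ± 9.29 FPKM for cattle-yak against 148.4 ± 14.2 FPKM for yak (mean ± SD, n = 3 each), a log2 (foldchange) of −3.32 (SE 0.37, limma adjusted p = 5.1e-05). Of all tested genes, 5.72% had a lower log2 (foldchange). The size of the fall depended on the cattle-yak animals included, with −3.74 without TES5 and −2.87 without TES7.

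PIWIL2 (ENSBGRG00000010031) had 27.1, 28.1 and 28.6 FPKM in the cattle-yak animals TES5, TES6 and TES7. The yak values were 13.3, 14.2 and 18.1 FPKM in Yak8, Yak9 and Yak10. All cattle-yak animals lay above all yak animals, and within cattle-yak the highest level was only 1.05 times the lowest. The log2 (foldchange) was 0.85 (SE 0.13, limma adjusted p = 3.8e-04), which passed the adjusted p and not the fold change threshold, and it exceeded the median of all tested genes by 0.33. With size factors taken as the median of ratios to a reference library (median-of-ratios scaling), it was 0.25 and no longer passed (limma adjusted p = 0.116).

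PIWIL4 (ENSBGRG00000010477) was the least abundant of the genes in both groups. It had 1.64, 1.45 and 1.82 FPKM in TES5, TES6 and TES7 and 0.617, 1.09 and 1.55 in Yak8, Yak9 and Yak10, so that Yak10 stood within the cattle-yak range and Yak8 well below it. Only 25 fragments lay behind the value of Yak8 and 62 behind that of Yak10, with exact Poisson intervals of 0.399 to 0.911 and 1.19 to 1.98 FPKM (95%, counting error only). The log2 (foldchange) of 0.36 did not pass the test (95% interval −0.09 to 0.82, limma adjusted p = 0.120). Without Yak10 it was 0.52 (limma adjusted p = 4.0e-02), and without Yak8 it was 0.19 (limma adjusted p = 0.375).

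The make-up of the PIWI transcripts differed between the groups. In yak PIWIL1 had 12.2, 10.4 and 7.45 times the FPKM of PIWIL2 in Yak8, Yak9 and Yak10, whereas in cattle-yak the ratio was 0.940, 0.520 and 0.245 in TES5, TES6 and TES7. PIWIL1 was thus the more abundant of the pair in 3 of 3 yak and PIWIL2 in 3 of 3 cattle-yak, though the pair was close in TES5. There the exact Poisson intervals overlapped, with 24.0 to 27.1 FPKM for PIWIL1 and 25.8 to 28.5 for PIWIL2. The log2 ratio was −1.02 ± 0.97 for cattle-yak against 3.29 ± 0.36 for yak (mean ± SD, n = 3 each), a difference of −4.32 (exact permutation test, two-sided, p = 0.1, the smallest that 3 animals against 3 allow). A ratio within a library does not depend on the scaling between libraries. With PIWIL3, a PIWI gene that mice lack, included, PIWIL1 made up 44.6%, 30.5% and 17.1% of the summed FPKM of the 4 PIWI genes in TES5, TES6 and TES7. In Yak8, Yak9 and Yak10 its share was 91.9%, 90.1% and 86.7%. The share of PIWIL2 was 58.7% ± 11.3 for cattle-yak against 9.28% ± 2.13 for yak (mean ± SD, n = 3 each). The sum itself was 48.6 ± 8.16 FPKM for cattle-yak against 165.5 ± 11.2 FPKM for yak (mean ± SD, n = 3 each).

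**Figure D2:**
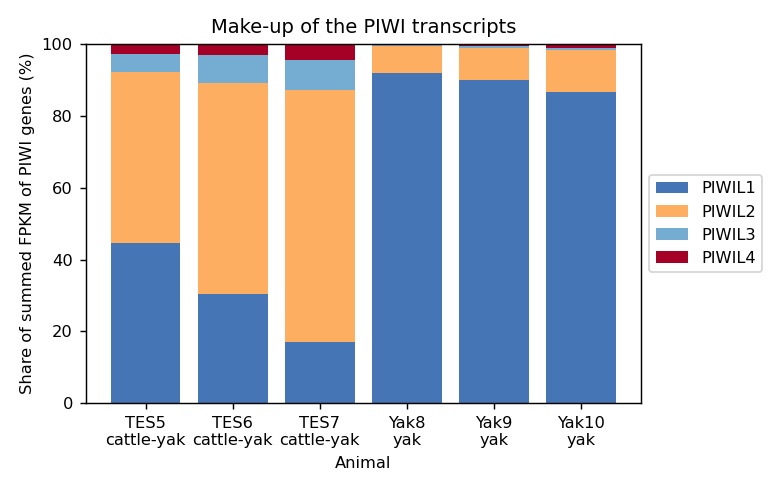
Share of each PIWI gene in the summed FPKM of PIWIL1, PIWIL2, PIWIL3 and PIWIL4 (percent), with 1 bar per animal. PIWIL1 filled 86.7% to 91.9% of the bar in yak and 17.1% to 44.6% in cattle-yak. There PIWIL2 was the largest part in each animal, though only narrowly in TES5 (47.5% against 44.6%).

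MAEL (ENSBGRG00000006416), a protein of the germ granule and nucleus that is needed for transposon silencing, was the most abundant of the genes in both groups. It had 71.6, 58.8 and 69.8 FPKM in TES5, TES6 and TES7, and 191.9, 197.1 and 198.6 in Yak8, Yak9 and Yak10. The yak animals lay within 1.03 times of each other, and no cattle-yak animal came near them. The log2 (foldchange) was −1.54 (SE 0.10, limma adjusted p = 2.7e-06).

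TEX15 (ENSBGRG00000024980), which acts with PIWIL4 in transposon methylation in mice and is also needed in meiosis, had 23.8, 14.6 and 18.8 FPKM in TES5, TES6 and TES7. In Yak8, Yak9 and Yak10 it had 38.7, 39.3 and 44.9 FPKM. The groups did not overlap, and TES6 was the lowest animal, as for MAEL. The log2 (foldchange) of −1.09 lay close to the threshold (SE 0.17, limma adjusted p = 4.1e-04). It was −0.92 without TES6, with an adjusted p of 9.9e-04 from limma, and then did not count as called.

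Among the factors of piRNA production, PLD6 (ENSBGRG00000012551) encodes the mitochondrial nuclease that cuts the precursors. It had 18.4, 13.5 and 10.8 FPKM in TES5, TES6 and TES7, and 36.9, 35.6 and 30.7 in Yak8, Yak9 and Yak10. The cattle-yak animals lay below all yak animals and stood in the same order as for PIWIL1. The exact Poisson intervals of TES6 (11.2 to 16.0 FPKM) and TES7 (8.84 to 13.0) overlapped, however. The log2 (foldchange) was −1.25 (SE 0.18, limma adjusted p = 2.8e-04), and its gene model of 864 bases, the shortest of the list, gave 108 to 188 fragments in cattle-yak.

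HENMT1 (ENSBGRG00000000419), the methyltransferase that protects the ends of finished piRNAs, differed in the other direction. It had 7.14, 8.41 and 10.3 FPKM in TES5, TES6 and TES7, against 4.68, 4.41 and 4.81 in Yak8, Yak9 and Yak10. All cattle-yak animals were above all yak animals. The order within cattle-yak was the reverse of that for PIWIL1, though the exact Poisson intervals of TES5 and TES6 overlapped. The log2 (foldchange) of 0.76 passed the adjusted p and not the fold change threshold (SE 0.16, limma adjusted p = 2.0e-03). With median-of-ratios scaling it was 0.22 and did not pass (limma adjusted p = 0.206).

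MOV10L1 (ENSBGRG00000002468), the helicase that binds and unwinds piRNA precursors, had 29.6, 22.0 and 26.5 FPKM in TES5, TES6 and TES7. Its yak values of 28.2, 24.7 and 33.0 FPKM in Yak8, Yak9 and Yak10 covered much the same range. The log2 (foldchange) of −0.13 did not pass the test (95% interval −0.48 to 0.21, limma adjusted p = 0.423). With median-of-ratios scaling it was −0.74, past the adjusted p of limma (2.2e-03) and short of the fold change threshold.

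ASZ1 (ENSBGRG00000003561), which holds the germ granule to the mitochondrial surface, had 31.1, 28.1 and 31.2 FPKM in TES5, TES6 and TES7, and 25.7, 24.2 and 26.9 in Yak8, Yak9 and Yak10. The cattle-yak animals lay above the yak animals by a small margin. The log2 (foldchange) of 0.23 did not pass the test (95% interval −0.01 to 0.46, limma adjusted p = 0.0665), and with median-of-ratios scaling its direction turned, to −0.38 (limma adjusted p = 8.8e-03).

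**Figure D3:**
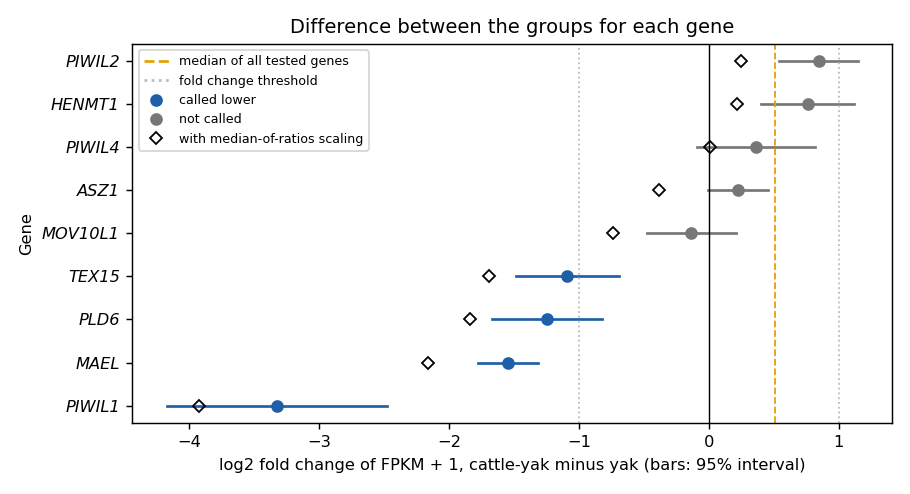
Log2 (foldchange) of FPKM + 1 (cattle-yak minus yak) of each gene with its 95% interval from limma, in blue for the 4 genes called lower and grey for the others. The open diamonds give the value with median-of-ratios scaling, which lay lower for all 9 genes and below 0 for ASZ1, and the dashed line marks the median of all tested genes at 0.51.

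The small differences depended on the scaling of the libraries. The deposited FPKM were scaled to the fragments of each library, without further scaling between libraries. Relative to the median of all tested genes, 7 of the 9 genes lay lower in cattle-yak, PIWIL4 and ASZ1 among them (−0.15 and −0.29). Median-of-ratios scaling shifted the median of all genes by 0.50, to 0.01, and in that fit the same 4 genes were called lower and 0 higher, beside 27.9% and 17.5% of all tested genes. Values from −1.69 for TEX15 to −3.92 for PIWIL1 were found for the called genes. The largest positive value in that fit was that of PIWIL2.

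Since DDX4 could not serve as a common denominator, the other genes were set against PIWIL2 in the same library, as PIWIL1 was above. For the genes other than PIWIL1 this was chosen after the values had been seen. PIWIL2 had the highest log2 (foldchange) of the 9 genes, so ratios to it lean towards lower values in cattle-yak by this choice alone. Counts of lower ratios are therefore given as a description and not as a result about the genes. The ratio to PIWIL2 was lower in every cattle-yak animal than in every yak animal for PIWIL1, MAEL, PLD6, TEX15, MOV10L1 and ASZ1, which are 6 of 8 genes, against 44.3% of all other tested genes. Each of these 6 ratios had p = 0.1 (exact permutation test, two-sided, adjusted p = 0.13 over 8 ratios), the smallest value possible. The ratio of MAEL to PIWIL2 was 2.64, 2.10 and 2.44 in TES5, TES6 and TES7 and 14.4, 13.9 and 11.0 in Yak8, Yak9 and Yak10. For MOV10L1, whose own FPKM overlapped between the groups, the ratio was 1.09, 0.783 and 0.927 in cattle-yak against 2.11, 1.74 and 1.82 in yak. The ratio of HENMT1 to PIWIL2 differed by less than the spread between animals, with log2 ratios of −1.71 ± 0.23 for cattle-yak against −1.70 ± 0.20 for yak (mean ± SD, n = 3 each, exact permutation p = 0.9). In a limma fit with each library centred on PIWIL2, 4 of the other 8 genes were called lower, where 33.8% of all other tested genes were. The values were −4.17 for PIWIL1, −2.39 for MAEL, −2.09 for PLD6 and −1.93 for TEX15. MOV10L1, at −0.98, and ASZ1, at −0.62, passed the adjusted p of that fit but not its fold change threshold (limma adjusted p = 3.9e-04 and 5.7e-03). Every value of that fit has the log2 (foldchange) of PIWIL2 itself, 0.85, subtracted from it. Before this, MOV10L1 was at −0.13 and ASZ1 at 0.23. For HENMT1 the 95% interval of the difference from PIWIL2 ran from −0.53 to 0.36 on the log2 scale.

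The order of the levels, which are per length of the gene model, also differed. In yak the mean FPKM ran from MAEL (195.9) over PIWIL1 (148.4), TEX15 (41.0), PLD6 (34.4), MOV10L1 (28.6), ASZ1 (25.6) and PIWIL2 (15.2) to HENMT1 (4.63) and PIWIL4 (1.08). The ranges of neighbours overlapped only for PLD6 with MOV10L1 and for MOV10L1 with ASZ1. In cattle-yak MAEL was again the highest (66.7), and HENMT1 (8.63) and PIWIL4 (1.64) the lowest. Between them, the ranges of each pair of neighbours overlapped from ASZ1 (30.1) over PIWIL2 (27.9), MOV10L1 (26.0), TEX15 (19.1) and PIWIL1 (15.7) to PLD6 (14.2). PIWIL1 went from place 2 in yak to place 6 in cattle-yak, and PIWIL2 from 7 to 3.

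Marker genes of the germ cell stages also differed between the groups, and their part in the differences above was not tested. The lists name genes that the study had already reported as changed in these data, such as GFRA1, ID4 and TNP1, so the counts are not independent of it. Of all tested genes, 33.4% were called higher and 20.8% lower. Of the spermatogonia list 11 of 12 tested genes were called higher, with a summed FPKM of 827 to 1035 in cattle-yak against 200.1 to 271 in yak. The early spermatocyte list had 1 of 10 genes called higher and 0 lower, with sums of 289.7 to 459.5 and 406 to 435.7 FPKM. MEIOB and STAG3 of this list were thus not called lower here, whereas the study, which used DESeq, reports both as significantly downregulated. The list counts are from the fit without further scaling between libraries. All 6 tested genes of the pachytene list were called lower (147.9 to 292.8 against 1833 to 1958 FPKM), as were all 7 of the round spermatid list (4.99 to 29.5 against 793 to 984) and all 6 of the elongating spermatid list (18.3 to 85.9 against 9060 to 11018). The pachytene, round spermatid and elongating spermatid lists had named 9, 8 and 8 genes, and those without a row were not analysed here. No marker with a row in these germ cell lists was at 0 in every animal of a group.

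The tested markers of Sertoli, Leydig and myoid cells were higher, while those of endothelial cells and macrophages were mixed, with sums that overlapped between the groups. Of all tested genes, 33.4% were called higher and 20.8% lower. All 11 tested genes of the Sertoli list were called higher (summed FPKM 1341 to 1572 in cattle-yak against 214.5 to 289.9 in yak), while GATA1, the other gene of the list, was at 0 in cattle-yak and was not tested. All 6 Leydig genes (10434 to 12423 against 3340 to 4864 FPKM) and all 5 myoid genes (560.1 to 755 against 114.2 to 140.6) were called higher. Of the endothelial list 3 of 6 genes were called higher and 1 lower (30.2 to 48.2 against 27.9 to 32.5 FPKM), and of the macrophage list 4 of 7 higher and 2 lower (120.1 to 168.2 against 108.5 to 141.4). When the log2 values of each library were centred on the Sertoli or on the spermatogonia list, all 9 piRNA genes were called lower, PIWIL2 at −1.43 and −1.03, where 75.2% and 62.3% of all tested genes were. Centred on the early spermatocyte list, 4 of the 9 were called lower, where 2984 of the 15042 tested genes were. In that fit PIWIL2 was at 0.92 and HENMT1 at 0.84.

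The cattle-yak animals also differed from each other in a way that 2 of the genes shared with the late stages. Relative to the yak mean of log2 (FPKM + 1), PIWIL1 lay at −2.49, −3.26 and −4.22 in TES5, TES6 and TES7, and the median of the pachytene list at −2.59, −3.21 and −3.71. The round spermatid list was at −4.89, −5.22 and −6.32, and PLD6 at −0.87, −1.29 and −1.58, so that TES5 was highest and TES7 lowest for all of them. MAEL, TEX15 and MOV10L1 had another order, with TES5 highest and TES6 lowest, which was also that of the early spermatocyte list (0.14, −0.43 and 0.02 in TES5, TES6 and TES7). PIWIL2 and HENMT1 were highest in TES7 and lowest in TES5. With 3 animals these orders are given as a description, without a test.

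**Figure D4:**
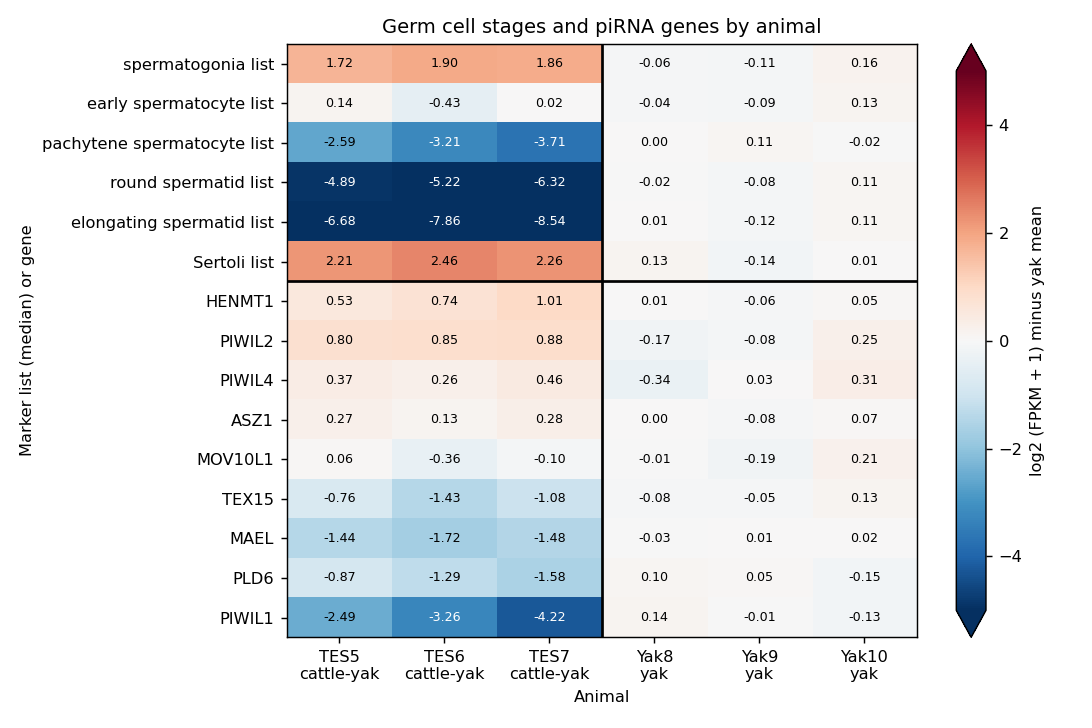
Log2 (FPKM + 1) minus the yak mean in each animal, as the median of 6 marker lists (upper rows) and for the 9 piRNA genes (lower rows), with colours cut at 5 in both directions. In cattle-yak the germ cell lists run from spermatogonia (1.72 to 1.90) to elongating spermatids (−6.68 to −8.54), the Sertoli list lies at 2.21 to 2.46, and the genes lie between 1.01 (HENMT1 in TES7) and −4.22 (PIWIL1 in TES7).

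Other genes of the piRNA pathway were followed with a list of 28 symbols, of which 25 had a row and 23 were tested (GTSF2, EXD1 and MYBL1 were not analysed here). In cattle-yak 8 of the 23 were called lower and 4 higher, beside the 20.8% and 33.4% of all tested genes given above, and the median log2 (foldchange) was −0.37. GTSF1L, which belongs to a family of PIWI cofactors, had the largest difference, with 4.05, 1.07 and 0.516 FPKM in TES5, TES6 and TES7 and 511, 537.3 and 638.7 in Yak8, Yak9 and Yak10. Its log2 (foldchange) was −7.80, and it rested on 24, 6 and 3 fragments in the cattle-yak animals. Its relative GTSF1, which helps PIWI proteins to cleave their targets, had 115.4 ± 44.1 FPKM for cattle-yak against 767.9 ± 45.6 FPKM for yak (mean ± SD, n = 3 each). The log2 (foldchange) of GTSF1 was −2.79. TDRD6 and TDRD5, Tudor domain proteins of the germ granule, had −2.92 and −2.65. TCFL5, a transcription factor of pachytene spermatocytes, had −2.83. FKBP6, TDRD9 and TDRD1 were the other genes called lower, at −1.91, −1.44 and −1.36.

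The 4 genes called higher had low levels, with means of 0.806 to 6.55 FPKM in yak and 2.35 to 4.13 times as much in cattle-yak. PIWIL3 had 2.86, 3.70 and 3.42 FPKM in TES5, TES6 and TES7 and 0.503, 0.953 and 0.961 in Yak8, Yak9 and Yak10, a log2 (foldchange) of 1.27 (limma adjusted p = 1.8e-04). SPOCD1 and C19orf84, which act with PIWIL4 in piRNA-directed DNA methylation in mice, had 1.19 and 1.04. BTBD18, a nuclear protein that promotes transcription of pachytene piRNA precursors in mice, had 1.08. None of these 4 was called by limma on log2 (FPKM + 1) with median-of-ratios scaling. Voom in limma on recovered fragments with those factors called only PIWIL3 of the 23 genes higher, at 1.46, where 23.0% of all tested genes were called higher. WDR77, the partner of the arginine methyltransferase PRMT5, had 0.82 and was not called. MORC1 and DNMT3L were below the filter, with at most 24 and 3 fragments in any animal.

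**Figure D5:**
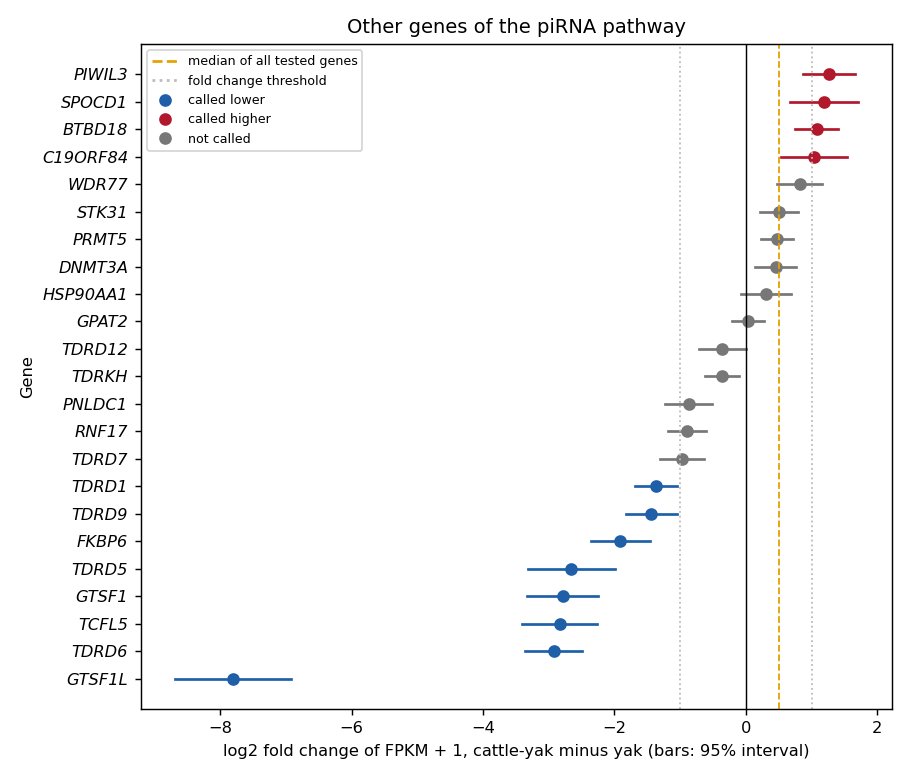
Log2 (foldchange) of FPKM + 1 (cattle-yak minus yak) with 95% intervals from limma for the 23 tested genes of the wider pathway, with called genes in blue (lower) and red (higher). The values run from −7.80 for GTSF1L to 1.27 for PIWIL3, and 13 of them lie below 0.

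In the annotation deposited with the values, 8 of the 9 genes carry the term piRNA metabolic process, which stands on 13 genes of the table. TEX15 is the gene without it. The other 5 genes of the term are FKBP6, TDRD1, TDRD9, TDRD12 and TDRKH, and of the 13 genes 6 were called lower and 0 higher by limma, beside 20.8% and 33.4% of all tested genes. All 6 were counted above, PIWIL1, MAEL and PLD6 among the 9 genes and FKBP6, TDRD9 and TDRD1 among the other pathway genes. The term P granule is shared by 6 of the genes (PIWIL1, PIWIL2, PIWIL4, MAEL, MOV10L1 and HENMT1), and DNA methylation involved in gamete generation also by 6 (PIWIL2, PIWIL4, MAEL, ASZ1, MOV10L1 and PLD6). Of the 12 tested genes of P granule 4 were called lower and 2 higher, with PIWIL1, MAEL and TDRD1 among the 4. Of the 16 tested genes of DNA methylation involved in gamete generation 6 were called lower and 2 higher. These 6 were MAEL, PLD6, FKBP6, TDRD1, TDRD5 and TDRD9, all counted above. The shares of all tested genes, 20.8% and 33.4%, apply to both terms.

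The tested genes with the most similar profile over the 6 animals were found by the root mean square difference of log2 (FPKM + 1), centred on each gene's own mean. For PIWIL1 these were ATP8B3, CA9 and RSPH9, with differences of 0.11, 0.11 and 0.12. For PLD6 they were PCGF5, GJB5 and UBN1 (0.041 to 0.075), for MAEL SNAP29, POLR2I and THAP1 (0.051 to 0.073), and for TEX15 TEX30, NDUFB4 and MEIOC (0.052 to 0.073). The nearest genes to PIWIL2 were RABAC1, AP2M1 and ENGASE (0.038 to 0.042), and those to HENMT1 were RPL6, MBOAT1 and RPL37 (0.047 to 0.059). ASZ1 was nearest to ATF2, NSMCE2 and MTDH (0.029 to 0.042), MOV10L1 to ORC4, PTPN2 and TUFT1 (0.050 to 0.063), and PIWIL4 to DNAJC10, PLEKHA3 and HSD11B1L (0.049 to 0.071). The nearest profile of every gene on the list belonged to a gene outside it. Since the list holds 9 of the 15042 tested genes, this cannot tell whether its genes share a pattern.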

How the data were processed

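RNA-seq of testis tissue (stranded mRNA libraries, paired-end reads) was deposited by the authors as FPKM per gene and animal. These are scaled to the fragments of each library, without further scaling between libraries. Per the study's methods, reads were trimmed with Trimmomatic and mapped with HISAT2 to the yak genome, and FPKM were calculated with Cufflinks. Groups and columns were taken from the sample labels.

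For 17973 genes the steps between low FPKM values gave whole fragments, within 0.001 of a whole number, and with them the depth. Genes reaching a mean FPKM of 0.5 entered limma (version 3.58.1, R 4.3.3), a two-sided moderated test with a trend of the variance on the level. A pseudocount of 1 was added before taking logs, which shrinks fold changes of low genes. Ratios within a library were compared with exact permutation tests (scipy 1.17.1, Python 3.11.15). Figures were drawn with matplotlib 3.10.9. The scripts were tested on simulated data.

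The genes and lists were chosen with earlier results of these data known. Of the wider pathway, the 5 lowest and the 5 highest genes and those not tested were to be named, and the 3 genes nearest in profile to each gene. FKBP6, TDRD9 and TDRD1 were added after their values were seen. Alternatives were other pseudocounts, filters, scalings and tests, and the omission of each animal. Nothing says that the animals of a group were unrelated. Genome coordinates and sequences were not used here.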

Additional observations from a re-analysis of the deposited data

How the results depend on the processing

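Under the alternatives, 259 values kept the direction and the side of the threshold of the value reported (counts, within 1.5 times of it), though some of them differed much in size, 17 reversed, 13 counts moved by over 1.5 times, 2 values passed the threshold in the same direction and 1 no longer did. No paired analysis was possible because the labels give the animals of the groups no shared numbers. Scaling moved the counts most. Centred on the Sertoli list, 9 of the 9 genes and 23 of the 23 other tested pathway genes were called lower. Centred on the spermatogonia list, these counts were 9 and 19. Of all tested genes, 75.2% and 62.3% were called lower in these fits. Centred on the early spermatocyte list, the counts were 4 and 8, where 2984 of the 15042 tested genes were called lower. Centred on PIWIL2, an alternative chosen after seeing the data, 13 of the other pathway genes were called lower, against 33.8% of all other tested genes. The 4 other pathway genes called higher became 0 with median-of-ratios scaling and with centring on the Sertoli list, the spermatogonia list or PIWIL2. They became 1 with voom and median-of-ratios factors, 2 with a minimum FPKM of 5 and 8 without a fold change threshold, which gave 2 of the 9 genes as higher. Without that threshold, 52.6% of all tested genes were higher. For the 4 genes called lower, the values over all alternatives ran from −5.60 to −2.87 for PIWIL1, −3.82 to −1.46 for MAEL, −3.52 to −1.08 for PLD6 and −3.36 to −0.92 for TEX15, which was not called without TES6.

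The reversals were all in genes that were not called, and arose with the scaling, or with an animal left out for a ratio near 0. On the Sertoli and the spermatogonia list respectively, PIWIL2 had −1.43 and −1.03, PIWIL4 −1.91 and −1.52, ASZ1 −2.05 and −1.65, and HENMT1 −1.51 and −1.12. Centred on PIWIL2, PIWIL4 had −0.48, ASZ1 −0.62 and HENMT1 −0.085. ASZ1 had −0.38 with median-of-ratios scaling and −0.39 with voom and those factors. Leaving out 1 animal at a time, 3 to 4 of the 9 genes were called lower, and the difference in the log2 ratio of HENMT1 to PIWIL2, −0.0069 with all animals, ran from −0.13 to 0.10 while that of PIWIL1 to PIWIL2 from −4.78 to −3.81. The ratios to DDX4 that were planned could not be computed.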
